A study of Mus musculus with 16 samples.

Results

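The endothelin system was followed through 6 genes, the ligand genes Edn1 and Edn3, the receptor genes Ednra and Ednrb, and the converting-enzyme genes Ece1 and Ece2, out of 21804 genes with a deposited value. The 6 were chosen by symbol, and with the difference in Edn1 between genotypes already in view. They were measured in RNA from brain tissue of 8 C57BL/6 mice aged 4 months, each giving 1 cortex and 1 thalamus library. The 4 ret/ret animals carried the Pdgfb retention allele on both chromosomes, and the 4 control animals, ret/wt, carried it on 1, so every group held at least 1 retention allele. The allele removes the stretch that keeps the growth factor PDGF-B near the vessel wall in every cell that makes it, and is known for leaving brain vessels short of pericytes. From the thalamus of ret/ret mice the autofluorescent calcifications themselves were dissected, whereas ret/wt mice gave the matching region, so that in thalamus genotype and dissection cannot be told apart. Within ret/ret, region and dissection cannot be told apart either, which also limits every ret/ret regional difference and the interaction of genotype and region. Each combination of genotype and region had n = 4. The labels name the animal behind each library but not its litter or sex.

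Endothelins are short peptides that constrict vessels and act on neighbouring cells. They are cut from larger precursors, first by furin-like proteases and then by the endothelin-converting enzymes, and bind the G protein-coupled receptors ETA (Ednra) and ETB (Ednrb). In brain, endothelial cells are the main known source of endothelin-1, ETA is found on mural cells, and ETB on astrocytes and endothelium, where it also clears the peptide.

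The promoters of Edn1 and Ece2 are shown because these genes had the clearest differences, by genotype and by region respectively. Both come from RefSeq on GRCm38.p6, plus strand, and all 6 genes matched the promoter table. The Edn1 window is chr13:42301226-42301505, which is 250 bases before the transcription start and the first 30 bases after it; its capitals mark the letters AGATAA, bound by GATA factors, and ACGTG, the core of the hypoxia response element, both read on the opposite strand. The Ece2 window is chr16:20629601-20629850, the 250 bases before the start; its capitals mark ACGTG.
Edn1: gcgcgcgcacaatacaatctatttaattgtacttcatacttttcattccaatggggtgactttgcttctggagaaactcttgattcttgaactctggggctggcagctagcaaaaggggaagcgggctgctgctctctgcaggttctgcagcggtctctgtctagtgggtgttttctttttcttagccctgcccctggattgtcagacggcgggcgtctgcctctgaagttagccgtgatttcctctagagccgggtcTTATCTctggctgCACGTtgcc
Ece2: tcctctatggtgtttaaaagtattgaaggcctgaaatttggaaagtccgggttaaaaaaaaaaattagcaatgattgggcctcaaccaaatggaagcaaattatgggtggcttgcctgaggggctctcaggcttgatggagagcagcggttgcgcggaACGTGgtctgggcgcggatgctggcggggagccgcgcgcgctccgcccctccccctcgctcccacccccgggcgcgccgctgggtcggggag
In Edn1 the AGATAA match covered bases 9 to 14 after the start and the ACGTG match bases 22 to 26. A further match, TGACTAA (a variant of the AP-1 site), covered bases 37 to 43 after the start, beyond the stretch shown. In Ece2 the ACGTG match lay 92 to 88 bases before the start. Both strands were searched in 32851 windows from 250 bases before to 50 after a start. AGATAA was present in 11.2% of them, ACGTG in 19.6%, TGACTAA in 2.3% and the AP-1 consensus TGANTCA, which was not found in the Edn1 window, in 7.8%. These matches describe letters and not bound sites. Positions count from the RefSeq start, and where transcription began in these libraries was not tested.

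Levels are given as CPM, counts scaled to a common library total over all 16 libraries, and library totals ran from 13415391 to 29135064 counts. At these depths 3 counts correspond to 0.103 to 0.224 CPM of the unscaled totals, a floor that covers counting error only. Some libraries stood apart. Both libraries of ret/wt animal 3 and ret/ret animal 2 held 111 to 172 CPM of 4 summed Y-linked genes, against 1.88 to 5.18 CPM in the other 12 libraries. The cortex libraries of the same 2 animals also held 2330 and 5230 CPM of summed cerebellar markers, against 168 to 255 CPM in the other cortex libraries. Ret/wt cortex replicate 4 held 1120 CPM of choroid plexus markers, against 9.15 to 66.8 CPM in the other cortex libraries. Summed markers of cortical neurons averaged 1780 and 1770 CPM in ret/wt and ret/ret cortex and 168 and 237 CPM in the thalamus groups, and those of thalamic neurons 117 and 192 CPM against 1320 and 1160 CPM, as the region labels have it. The thalamus libraries of ret/wt animal 3 and ret/ret animal 2 held 2590 and 2820 CPM of the thalamic neuron markers. The other thalamus libraries held 516 to 1010 CPM. The cortex libraries of these 2 animals had the lowest cortical neuron sums of their groups, 1300 and 815 CPM. All 6 genes passed the filter on low counts in every comparison.

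All 6 are protein-coding genes, placed here on GRCm38 by GENCODE M21. Edn1 lies at chr13:42301476-42307990 and Edn3 at chr2:174760619-174784042, both on the plus strand. The receptor genes lie on the minus strand, Ednra at chr8:77663031-77724464 and Ednrb at chr14:103814625-103844402. Ece1 lies at chr4:137862237-137965229 and Ece2 at chr16:20629828-20646485, both on the plus strand. Edn1, Ednra and Ece1 each overlap a gene on the opposite strand that was not analysed here. The libraries were stranded, but whether the quantification used the strand is not given in the sources used here, so reads of these partners cannot be told apart from those of the 3 genes.

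Edn1 encodes endothelin-1. It stood at 2.19, 2.75, 3.81 and 2.69 CPM in the ret/wt cortex libraries, and at 32.4, 18.2, 24.0 and 18.6 CPM in the ret/ret cortex libraries. In thalamus it stood at 2.87, 2.54, 2.83 and 4.0 CPM in ret/wt and at 21.8, 16.6, 9.14 and 12.6 CPM in ret/ret. Every ret/ret library was above every ret/wt library, in both regions, and the ret/wt values of the 2 regions overlapped. The ret/wt means were 2.86 ± 0.681 CPM in cortex and 3.06 ± 0.641 CPM in thalamus (SD, n = 4), and the ret/ret means were 23.3 ± 6.62 CPM and 15 ± 5.43 CPM. The log2 difference between genotypes (ret/ret minus ret/wt) was 3.02 ± 0.28 (SE) in cortex and 2.31 ± 0.33 in thalamus, given as a description because this contrast was in view when the genes were chosen. Without ret/wt animal 3 and ret/ret animal 2 the differences were 3.30 ± 0.28 and 2.22 ± 0.41. The highest mean was thus that of ret/ret cortex, which holds no calcifications per the labels, and its libraries overlapped those of the calcified pieces.

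**Figure D1:**
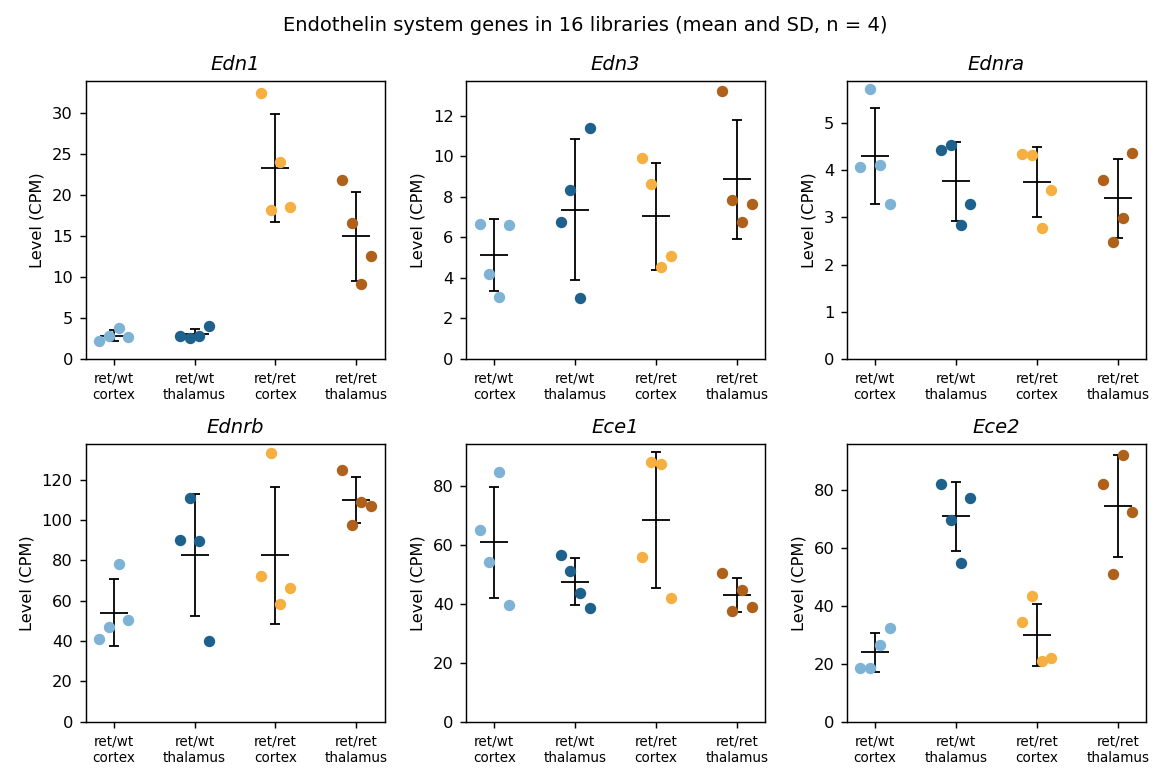
Level in CPM of each of the 6 genes (vertical axis) in the 4 groups of 4 libraries (points), with the mean and SD as black bars. Edn1 lies between 9.14 and 32.4 CPM in the ret/ret libraries and between 2.19 and 4.0 CPM in the ret/wt libraries, and Ece2 is higher in both thalamus groups.

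Between regions Edn1 passed no test. The thalamus minus cortex difference was 0.08 ± 0.33 in ret/wt (SE; edgeR quasi-likelihood, adjusted p = 0.903) and -0.65 ± 0.30 in ret/ret (adjusted p = 0.198). Taken animal by animal, thalamus was below cortex in 4 of 4 ret/ret animals, with log2 differences from -1.39 to -0.14, and in 2 of 4 ret/wt animals. The difference between these regional differences was -0.72 ± 0.41.

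Because fewer cells of a type and less RNA per cell cannot be told apart in bulk tissue, Edn1 was also set against endothelial markers measured in the same libraries. The sum of 14 endothelial markers, among them Pecam1 and Slc2a1, averaged 361 ± 57.2 CPM in cortex (range 305 to 425) and 450 ± 72.8 CPM in thalamus (404 to 559) of ret/wt mice. In ret/ret mice it averaged 475 ± 110 CPM (390 to 634) and 574 ± 191 CPM (427 to 853), so that the genotypes overlapped. None of the 14 was at or under 3 counts in every library of a group. Slc2a1 was the largest part of the sum in every group. The median of the 14 was higher in ret/ret by 0.57 in cortex and 0.41 in thalamus. Over all genes tested it was 0.01 and -0.02. Of the 14, 0 were called in either region, where 0.021% and 0% of all genes were called. The shares of Edn1 that follow hold for that sum alone. Edn1 came to 0.818 ± 0.28% of that sum in cortex and 0.677 ± 0.0521% in thalamus of ret/wt mice, with a highest value of 1.19%. In ret/ret mice it came to 4.86 ± 0.401% in cortex (4.35 to 5.25%) and 2.61 ± 0.521% in thalamus (2.14 to 3.35%). The genotypes did not overlap on this measure. Nothing is read from that, since it reuses the Edn1 values in view when the genes were chosen. The ret/ret regions did not overlap on it either. Against Pecam1 alone, an endothelial adhesion molecule, Edn1 came to 17.9 ± 8.01% and 84.0 ± 8.18% in cortex, and 11.6 ± 1.09% and 41.1 ± 7.64% in thalamus (ret/wt and ret/ret). The sum of 11 pericyte markers averaged 148 ± 27.9 CPM in ret/wt cortex (109 to 169) and 87.2 ± 28.6 CPM in ret/ret cortex (56.4 to 125), where Higd1b was at or under 3 counts in every library. In thalamus it averaged 224 ± 102 CPM (118 to 362) and 136 ± 81.1 CPM (69.2 to 245). Microglial markers summed to 265 to 390 CPM in ret/wt cortex and 250 to 498 CPM in ret/ret cortex, and to 266 to 332 CPM and 415 to 595 CPM in thalamus, where the genotypes did not overlap. Markers of reactive astrocytes summed to 239 ± 65.5 and 565 ± 403 CPM in cortex and 335 ± 183 and 606 ± 389 CPM in thalamus (ret/wt and ret/ret), highest in ret/ret replicate 1 of both regions, as was Edn1. The part of these cells in the Edn1 values was not tested.

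**Figure D2:**
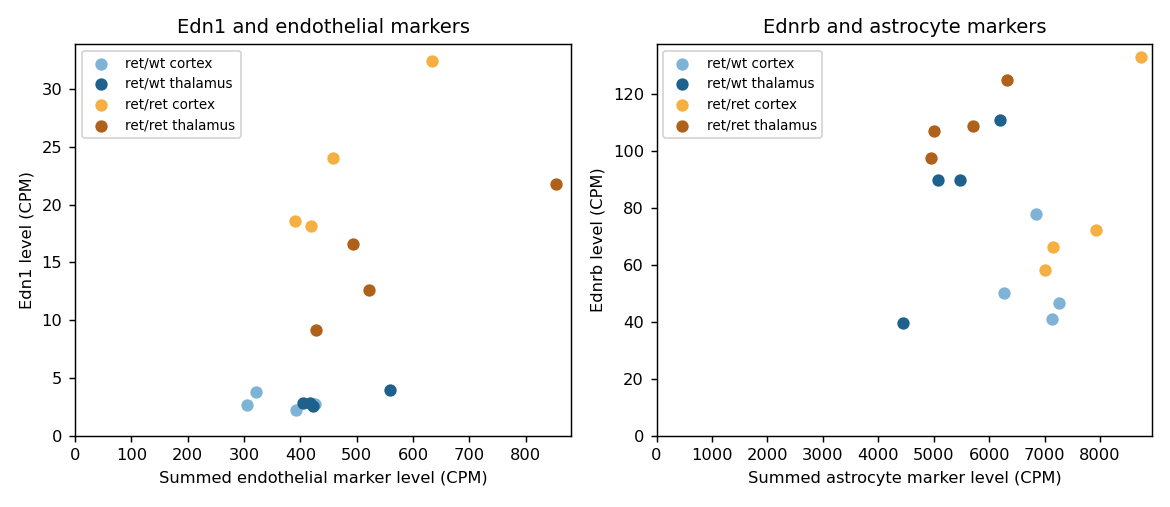
Left, Edn1 in CPM against the summed level of endothelial markers in CPM; right, Ednrb in CPM against summed astrocyte markers in CPM; each point is 1 of 16 libraries, coloured by group. At endothelial sums between 390 and 559 CPM, ret/ret libraries lie above ret/wt libraries in Edn1, the contrast in view when the genes were chosen.

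Edn3 encodes endothelin-3, which prefers ETB and is known for its role in neural crest cells. It stood at 6.65, 4.2, 3.08 and 6.62 CPM in ret/wt cortex and at 9.9, 8.63, 4.53 and 5.06 CPM in ret/ret cortex. In thalamus it stood at 6.74, 8.34, 3.01 and 11.4 CPM in ret/wt and at 13.2, 7.85, 6.75 and 7.63 CPM in ret/ret. Neighbouring groups in the order of the means overlapped and differed by less than the larger SD, while the lowest ret/ret thalamus library was just above the highest ret/wt cortex library. The regional difference was 0.52 ± 0.42 in ret/wt (adjusted p = 0.468) and 0.31 ± 0.34 in ret/ret (adjusted p = 0.592). The genotype difference was 0.46 ± 0.37 in cortex and 0.28 ± 0.40 in thalamus. The highest library, ret/ret thalamus replicate 1, also had the highest sums of its group for markers of fibroblasts and meninges (2280 CPM, against 468 to 1040), ependyma (65.3 CPM, against 15.6 to 30.9) and blood (122 CPM, against 12 to 22.8). The highest ret/wt library, thalamus replicate 4, had 3250 CPM of the fibroblast and meninges markers, against 529 to 1290 in its group, and without it the ret/wt regional difference was 0.22 in place of 0.52. The part of these cells in the Edn3 values was not tested. Without ret/ret thalamus replicate 1 the ret/ret regional difference was 0.06 and the genotype difference in thalamus 0.01. Per kilobase of exon, Edn1 came to 126 ± 78.9% of Edn3 in cortex and 97.2 ± 56.5% in thalamus of ret/wt mice, and to 690 ± 254% and 325 ± 59.9% in ret/ret mice. Across the ret/wt libraries its share ran from 58.6 to 238%, on both sides of equality, and Edn1 was the higher in all 8 ret/ret libraries, where its lowest share of Edn3 was 261%. The ligand gene Edn2 had at most 6 counts in any library and was not tested.

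Ednra encodes ETA, the receptor through which endothelin-1 constricts vessels. It stood at 4.07, 5.72, 4.11 and 3.28 CPM in ret/wt cortex and at 4.34, 4.31, 2.78 and 3.57 CPM in ret/ret cortex. In thalamus it stood at 4.42, 4.53, 2.83 and 3.28 CPM in ret/wt and at 3.78, 2.47, 2.98 and 4.35 CPM in ret/ret. The 4 groups overlapped throughout. The genotype difference was -0.19 ± 0.30 in cortex and -0.13 ± 0.32 in thalamus, beside the lower means of the pericyte sum in ret/ret. Ednra came to 2.96 ± 0.737% of that pericyte sum in ret/wt cortex and 4.45 ± 0.708% in ret/ret cortex, and to 1.91 ± 0.678% and 2.93 ± 0.998% in thalamus. Against the sum of the 6 measured smooth muscle markers it came to 23.6 ± 4.0% in ret/wt and 22.9 ± 6.17% in ret/ret cortex, and to 17.3 ± 8.5% and 11.3 ± 3.0% in thalamus. The mean share was thus higher in ret/ret against the pericyte sum. Against the smooth muscle sum it was lower in ret/ret by less than the larger SD in each region. Rgs5 was the largest part of the pericyte sum in ret/wt cortex, at 58.9 ± 7.64 CPM, against 18.1 ± 4.13 CPM in ret/ret cortex. The pericyte shares therefore hold for that sum alone. Neither regional difference passed the test, at -0.20 ± 0.31 in ret/wt (adjusted p = 0.737) and -0.16 ± 0.31 in ret/ret (adjusted p = 0.783).

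Ednrb encodes ETB. It stood at 40.9, 46.8, 78.1 and 50.3 CPM in ret/wt cortex and at 72.3, 133, 58.4 and 66.4 CPM in ret/ret cortex. In thalamus it stood at 89.9, 111, 89.7 and 39.8 CPM in ret/wt and at 125, 97.7, 109 and 107 CPM in ret/ret. The highest cortex value came from ret/ret replicate 2 and the highest ret/wt cortex value from replicate 3, the 2 libraries rich in cerebellar markers. The regional difference was 0.60 ± 0.31 in ret/wt (adjusted p = 0.256) and 0.39 ± 0.26 in ret/ret (adjusted p = 0.364). Without ret/wt animal 3 and ret/ret animal 2 it was 0.80 ± 0.35 in ret/wt (adjusted p = 0.203) and 0.78 ± 0.16 in ret/ret (adjusted p = 0.0155), and without ret/ret cortex replicate 2 alone it was 0.74 (adjusted p = 0.0174), so the ret/ret call turned on that library. The genotype difference was 0.62 ± 0.30 in cortex and 0.43 ± 0.27 in thalamus. The sum of 10 astrocyte markers averaged 6880 ± 442 and 5300 ± 729 CPM in ret/wt cortex and thalamus and 7700 ± 796 and 5490 ± 650 CPM in ret/ret. Its largest part was Slc1a2, a glutamate transporter, whose regional difference was -0.96 ± 0.28 in ret/wt (adjusted p = 0.0505) and -1.14 ± 0.23 in ret/ret (adjusted p = 0.0174). Slc1a3, a related transporter, was lower in thalamus in both genotypes, at -1.18 ± 0.18 and -1.23 ± 0.28 (adjusted p = 0.00216 and 0.0272). The median of the 10 markers was 0.47 in ret/wt and 0.30 in ret/ret. The sum and the median marker thus differed in sign, and the shares below hold for the sum alone. Ednrb came to 0.79 ± 0.252% of that sum in cortex and 1.52 ± 0.425% in thalamus of ret/wt mice, and to 1.05 ± 0.317% and 2.0 ± 0.0971% in ret/ret mice. Per kilobase of exon, Ednra was 6.61 ± 2.48% of Ednrb in cortex and 3.97 ± 1.72% in thalamus of ret/wt mice, and 3.77 ± 0.917% and 2.41 ± 0.534% in ret/ret mice. ETB was therefore the more abundant receptor transcript in all 16 libraries.

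Ece1 encodes the membrane metalloprotease that makes endothelin-1 from its precursor. It stood at 65.1, 54.4, 84.7 and 39.7 CPM in ret/wt cortex and at 56.0, 88.3, 87.6 and 42.0 CPM in ret/ret cortex. In thalamus it stood at 56.8, 51.2, 43.8 and 38.5 CPM in ret/wt and at 50.4, 37.6, 44.9 and 39.1 CPM in ret/ret. Thalamus was below cortex in all 8 animals, with log2 differences from -0.95 to -0.04 in ret/wt and from -1.23 to -0.10 in ret/ret. The lowest value of each genotype came from ret/wt animal 3 and ret/ret animal 2. Their cortex libraries, rich in cerebellar markers, had the highest Ece1 of their groups. The fitted difference did not pass the test, at -0.37 ± 0.25 in ret/wt (adjusted p = 0.367) and -0.69 ± 0.25 in ret/ret (adjusted p = 0.111). Without these 2 animals it was -0.12 in ret/wt and -0.47 in ret/ret. The genotype difference was 0.17 ± 0.30 in cortex and -0.12 ± 0.18 in thalamus.

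Ece2 encodes a related converting enzyme that works at acidic pH and is known from neural tissue. It stood at 18.4, 18.6, 26.5 and 32.4 CPM in ret/wt cortex and at 82.1, 69.7, 54.8 and 77.1 CPM in ret/wt thalamus. In ret/ret it stood at 34.3, 43.2, 20.9 and 21.8 CPM in cortex and at 81.8, 50.8, 92.1 and 72.4 CPM in thalamus. Every thalamus library was above every cortex library, within each genotype and across both. Ece2 rose from cortex to thalamus by 1.55 ± 0.24 on the log2 scale in ret/wt, a fold of 2.93 (adjusted p = 0.00248, and 5.58e-08 to 0.0115 over the alternatives). In ret/ret the rise was 1.28 ± 0.28 (adjusted p = 0.0233, and 0.00034 to 0.0667 over the alternatives). With the animal as a block the ret/ret value was 1.33 (adjusted p = 0.0609). Leaving out 1 of 5 libraries also ended that call, with an adjusted p of 0.0624 without thalamus replicate 1, 0.0648 without thalamus replicate 3, 0.0578 without thalamus replicate 4, 0.0643 without cortex replicate 3 and 0.0667 without cortex replicate 4. Without ret/wt animal 3 and ret/ret animal 2 the rise was 1.72 ± 0.28 in ret/wt (adjusted p = 0.00817) and 1.67 ± 0.23 in ret/ret (adjusted p = 0.00386). The 2 regional differences differed by -0.26 ± 0.37 (ret/ret minus ret/wt), and the genotype difference was 0.33 ± 0.29 in cortex and 0.08 ± 0.22 in thalamus. Markers of several cell types also differed between regions. In ret/wt and ret/ret the median thalamic neuron marker differed by 3.29 and 2.67, and the median cortical neuron marker by -4.77 and -3.73. The median oligodendrocyte marker differed by 1.88 and 1.76. The myelin gene Mbp rose from 1090 ± 382 CPM in cortex to 4460 ± 1050 CPM in thalamus of ret/wt mice (adjusted p = 0.00165) and from 1310 ± 346 to 5750 ± 1640 CPM in ret/ret mice (adjusted p = 0.00406). The myelin gene Mog rose by 1.90 ± 0.38 and 1.67 ± 0.20 on the log2 scale (adjusted p = 0.0085 and 0.00324). The part of any of these cell types in the Ece2 difference was not tested. Ece2 overlaps a same-strand readthrough gene, Gm49333, whose level averaged 1.09% to 4.21% of that of Ece2 over the groups. With both summed, the regional difference was 1.56 in ret/wt (adjusted p = 0.0026) and 1.27 in ret/ret (adjusted p = 0.0239).

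**Figure D3:**
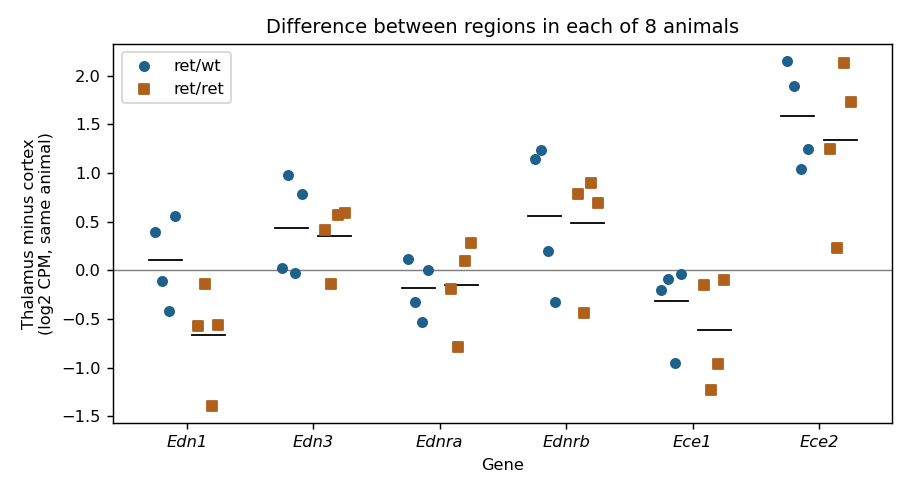
Thalamus minus cortex difference in log2 CPM (vertical axis) within each of the 8 animals for the 6 genes, with circles for ret/wt, squares for ret/ret and black lines for the means. Ece2 lies above 0 in all 8 animals and Ece1 below 0 in all 8. Within each genotype Ece1 is lowest in ret/wt animal 3 and ret/ret animal 2.

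The balance of the enzymes differed between regions in both genotypes. Per kilobase of exon Ece2 was 45.5 ± 26.2% of Ece1 in ret/wt cortex and 48.2 ± 16.5% in ret/ret cortex, and 157 ± 34.6% and 178 ± 31.2% in ret/wt and ret/ret thalamus. Ece2 was the lower in all 8 cortex libraries, where its highest share was 84.6%, and the higher in all 8 thalamus libraries, where its lowest was 130%. Per kilobase of the longest transcript the highest cortex share was 114%, in a ret/wt library, so there the order depends on the length used.

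Counted together, 1 of the 6 genes (Ece2) was called between regions in ret/wt, where 12.6% of the 14442 genes tested were called, and 1 of 6 (again Ece2) in ret/ret, where 9.5% of 14715 were. The groups did not overlap for 1 of 6 in either genotype, against 20% and 17.6% of all genes. The median difference of the 6 was 0.30 in ret/wt and 0.08 in ret/ret, against 0.03 and -0.02 over all genes tested. Between genotypes 1 of 6 (Edn1) was called in cortex, against 0.021% of genes, and 0 of 6 in thalamus, against 0% of 14767 genes. The cortex call was lost without ret/wt cortex replicate 1, 2 or 4, at log2 differences of 2.91, 2.98 and 2.99. It was also lost with the replicate number as a block, which between genotypes joins different animals and so tests no pairing. In the thalamus comparison 581 genes had an unadjusted p under 0.05 in edgeR, among them 1 of the 6, and DESeq2 called 38 genes, again with 1 of the 6. The groups did not overlap for 1 of 6 in each region, Edn1, against 2.39% of genes in cortex and 2.8% in thalamus. Nothing is read from the genotype counts, since that contrast served to choose the genes. In the interaction of genotype and region 0 of 6 and 0% of 15286 genes were called, with 245 genes at an unadjusted p under 0.05, 0 of the 6 among them, and 4 genes called by DESeq2.

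**Figure D4:**
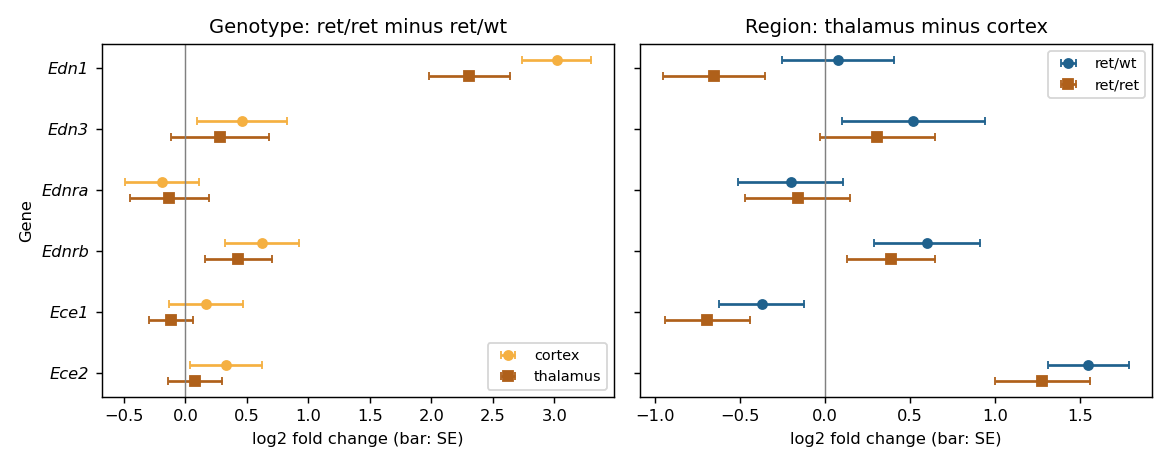
Log2 fold change of the 6 genes (horizontal axis, bar is the SE) between genotypes in cortex and thalamus (left) and between regions in ret/wt and ret/ret (right). Edn1 stands at 3.02 and 2.31 between genotypes, and Ece2 at 1.55 and 1.28 between regions.

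The wider pathway was described through 104 genes in 7 lists, 102 of them with a deposited value. Between regions 26 of the 88 tested were called in ret/wt, 10 higher and 16 lower in thalamus, with a median of -0.03, where 12.6% of all genes were called. In ret/ret 15 of 88 were called, 5 higher and 10 lower, with a median of -0.08, where 9.5% of all genes were called; over all genes tested the medians were 0.03 and -0.02. Without ret/wt animal 3 and ret/ret animal 2 the counts were 18 of 91 and 23 of 88, and with 1 library left out 19 to 26 and 8 to 20, the lowest in ret/ret being without thalamus replicate 1, cortex replicate 3 or thalamus replicate 3. The counts over all genes moved too, to 1178 to 1797 in ret/wt and 627 to 2007 in ret/ret with 1 library left out, against 1813 and 1398. Without the 2 animals the ret/ret count over all genes was also higher. By DESeq2 2587 and 2591 genes were called over all genes in ret/wt and ret/ret. These lists were drawn up with earlier results known, and the main counts of each list stand against the same shares of all genes. The list of G proteins and their effectors held most of the lower genes, with 2 higher and 9 lower of 21 in ret/wt and 1 higher and 6 lower of 21 in ret/ret. Without ret/wt animal 3 the ret/wt counts were 1 higher and 6 lower, and without ret/ret animal 2 the ret/ret counts were 2 higher and 7 lower. By DESeq2 13 of 21 were called in ret/wt and 10 of 21 in ret/ret. Itpr1, the calcium channel opened by the second messenger IP3, fell by 2.23 in ret/wt and fell by 2.45 in ret/ret (adjusted p = 0.0202 and 0.0437). It is abundant in cerebellar Purkinje cells, and without the 2 animals it fell by 2.02 and fell by 1.52 (adjusted p = 0.0391 and 0.0174), and without ret/ret cortex replicate 2 alone it fell by 1.34 in ret/ret. Its call was lost on leaving out 2 of 8 libraries in ret/wt and 5 of 8 in ret/ret. Plcb1, the phospholipase that makes IP3, fell by 1.63 in ret/ret (adjusted p = 0.0193, and 0.00809 to 0.0631 with 1 library left out). In ret/wt Plcb1 was called too, at -2.02 to -1.67 with 1 library left out (adjusted p = 0.00636 to 0.0111). Prkcd, a protein kinase C that also marks thalamic neurons, rose by 4.88 ± 1.16 in ret/wt (adjusted p = 0.0204, and 0.00598 to 0.0665 with 1 library left out). Without ret/wt thalamus replicate 3 the Prkcd rise was 3.0 (adjusted p = 0.036). In ret/ret Prkcd was not called and ran from 0.01 to 5.39 with 1 library left out (adjusted p = 0.0817 to 0.996). Trpc6, a cation channel, fell by 2.46 ± 0.41 in ret/wt (adjusted p = 0.00332). In ret/ret Trpc6 was not called, at -1.15 to -0.31 with 1 library left out (adjusted p = 0.112 to 0.744). Gna12, a G protein subunit, rose by 0.77 ± 0.16 in ret/wt (adjusted p = 0.0121, but 0.0545 without ret/wt animal 3). In ret/ret Gna12 rose by 0.76 ± 0.15 (adjusted p = 0.0151). The subunit genes that couple both receptors to phospholipase C, Gnaq and Gna11, differed by -0.66 ± 0.20 (adjusted p = 0.053) and -0.64 ± 0.17 (adjusted p = 0.0376, and 0.0801 with the animal as a block) in ret/wt, and by -0.65 ± 0.20 (adjusted p = 0.0742) and -0.23 ± 0.16 (adjusted p = 0.394) in ret/ret.

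Of the genes of nitric oxide and cyclic GMP, the pathway that opposes constriction, 2 of 8 were lower in thalamus in both genotypes, the guanylate cyclase subunits Gucy1a1 and Gucy1b1. Gucy1a1 fell by 1.78 ± 0.36 in ret/ret (adjusted p = 0.0169, and 0.0127 to 0.0558 with 1 library left out). The endothelial synthase gene Nos3 differed by 0.45 ± 0.45 in ret/wt and 0.50 ± 0.30 in ret/ret (adjusted p = 0.558 and 0.32), and by -0.05 in ret/wt without thalamus replicate 4. Among other vasoactive peptides and receptors, 4 of 17 were higher in ret/wt thalamus and 1 of 17 in ret/ret thalamus, where DESeq2 called 4. Agt, the angiotensin precursor, rose by 3.38 ± 0.39 in ret/wt (adjusted p = 0.000494). In ret/ret it differed by 2.19 ± 0.77 (adjusted p = 0.106, and 0.0495 by DESeq2), and without ret/ret animal 2 by 3.42 ± 0.71 (adjusted p = 0.0161). Of the regulators of Edn1 transcription, 2 of 14 were lower in ret/wt thalamus (Smad3 and Smad4) and 2 of 14 higher in ret/ret thalamus (Gata2 and Nfkb1), the latter count being 0 of 14 with the animal as a block (6 at an unadjusted p under 0.05). Without the block 6 of the 14 also had such a p in ret/ret, where 3926 of all 14715 genes had one. Smad3, a transducer of TGF-beta signals, fell by 2.12 ± 0.42 in ret/wt (adjusted p = 0.00819) and differed by -1.49 ± 0.41 in ret/ret (adjusted p = 0.0515, and 0.00412 by DESeq2). Gata2, a GATA factor of endothelium, rose by 1.33 ± 0.34 in ret/ret (adjusted p = 0.0394, but 0.0709 with the animal as a block and up to 0.106 with 1 library left out). In ret/wt Gata2 differed by 1.17 ± 0.48 (adjusted p = 0.147). Ppp1r14a, an inhibitor of myosin phosphatase, rose by 2.04 ± 0.33 in ret/ret (adjusted p = 0.0071). In ret/wt Ppp1r14a was called too, at 1.54 to 1.96 with 1 library left out (adjusted p = 0.00838 to 0.0396). Of the genes of desensitisation, 2 of 11 were higher in ret/wt thalamus and 0 of 11 were called in ret/ret by edgeR (3 at an unadjusted p under 0.05, 1 by DESeq2). Over all genes in ret/ret, 3926 of 14715 had such an unadjusted p. Rgs16, a negative regulator of G proteins, rose by 2.70 ± 0.58 in ret/wt (adjusted p = 0.0125, but 0.0562 without ret/wt animal 3). In ret/ret Rgs16 differed by 0.37 to 2.64 with 1 library left out (adjusted p = 0.11 to 0.509). Among the remaining processing enzymes and ligands, 2 of 7 were called in ret/wt (Mmel1 higher and Pcsk5 lower) and 0 of 7 in ret/ret by edgeR (3 at an unadjusted p under 0.05, 1 by DESeq2). The same 3926 of 14715 genes stand beside that unadjusted count. The peptidase genes Mme, whose product degrades endothelin, and Ecel1, a relative of the converting enzymes, differed by 1.27 ± 0.47 and 1.30 ± 0.82 in ret/wt (adjusted p = 0.111 and 0.343), and by 1.01 ± 0.41 and -0.03 ± 1.18 in ret/ret (adjusted p = 0.149 and 0.989). The Ecel1 values moved with single libraries. Replicate 1 of ret/ret cortex held 53.3 CPM of Ecel1 and the other 3 held 0.518 to 4.48 CPM, and without it the difference was 2.91 (adjusted p = 0.0656). In ret/wt it was 2.98 without cortex replicate 4 (adjusted p = 0.0122), and that of Mme was 1.57 without thalamus replicate 4 (adjusted p = 0.0177).

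Between genotypes 1 of 87 list genes was called in cortex, where 0.021% of all genes were called. In thalamus edgeR called 0 of 91, where 0% of all genes were called. Of the 91, 7 had an unadjusted p under 0.05, beside 581 of all 14767 genes. DESeq2 called 1 of the 91, beside 38 over all genes. The gene called in cortex was Rgs5, a pericyte regulator of G protein signals. It fell by 1.70 ± 0.20 in ret/ret cortex, from 58.9 ± 7.64 to 18.1 ± 4.13 CPM (adjusted p = 0.041). The call was lost on leaving out any 1 of the 8 cortex libraries (adjusted p = 0.08 to 0.235) and without the 2 animals (0.152), while the difference stayed between -1.82 and -1.59 with 1 library left out. In thalamus it stood at 53.3 ± 10.8 CPM in ret/wt and 19.6 ± 2.39 CPM in ret/ret, a difference of -1.43 ± 0.19 (adjusted p = 0.216). The median list gene differed by 0.02 in cortex and 0.04 in thalamus, against 0.01 and -0.02 over all genes.

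The genes most like each member were found by the correlation of log2 CPM over the 16 libraries among 12770 genes. The libraries share animals and groups, so these values describe likeness only. Edn1 was most like Fmo2 and Ctla2a (r = 0.94 each), Lpar6 and Cd93 (0.92 each) and Adgrl4 (0.91). Fmo2 stood at 2.46 ± 0.626 CPM in ret/wt cortex and 15.6 ± 3.61 CPM in ret/ret cortex, and Adgrl4, an endothelial adhesion receptor, at 16.6 ± 6.57 and 50.3 ± 20.6 CPM. With the group means taken out, r with Edn1 was 0.62 for Fmo2, 0.29 for Lpar6 and 0.79 for Adgrl4. Ednrb was most like Aqp4, the astrocyte water channel (r = 0.93, and 0.95 with the group means taken out), followed by Etfrf1, Prkd3, Rhobtb3 and Cd2ap (0.90 to 0.92). Ece2 was most like Sall2, Sparc, Itpkb and Fam196b (r = 0.96 each) and Aard (0.95). Edn3 was most like Mocos (0.88), Pltp and Tap1 (0.87 each), Rgl2 (0.86) and Sardh (0.85). Ednra was most like Slc7a2 (0.87), Emp2 (0.84), ENSMUSG00000110746 and Ranbp3l (0.78 each) and Slc7a11 (0.77). Ece1 was most like Ppp1r16b (0.88), 1190002N15Rik, Pmm2 and Mtcl1 (0.85 each) and Asph (0.84). Among the members, the highest correlation was that of Ednrb and Ece2 (r = 0.60), and Edn1 reached at most 0.39, with Ednrb.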

How the data were processed

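Expected counts (kallisto 0.44.0 and GRCm38.p6, per the submitters' processing notes; the annotation used is not given in the sources used here) were deposited for 21804 genes in 16 libraries, without scaling, from polyA-selected RNA in stranded libraries per the labels. Of the nonzero values 99.5% were not whole (tolerance 0.001). Symbols and coordinates came from GENCODE M21 for 21581 genes (99.0%), and promoters from RefSeq.

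Counts were rounded and analysed in R 4.3.3 with edgeR 4.0.16 (filterByExpr with a minimum count of 10, TMM, quasi-likelihood F test, Benjamini-Hochberg at 0.05), each comparison on its own 8 libraries and the interaction on all 16. The alternatives were DESeq2 1.42.0, limma-voom (limma 3.58.1), other scalings and filters, a block, and 1 fit of all 16 libraries. Others were each library left out, and ret/wt animal 3 and ret/ret animal 2 left out. The block was the animal between regions and in the interaction, and the replicate number between genotypes. The sum of Ece2 and Gm49333, and the alternatives for the lists, were chosen after seeing the data. The scripts were tested on simulated data. The members and lists were chosen with earlier results of these data known.

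Named were the 6 members, a fixed set (Edn2, Ecel1, Mme, Gnaq, Gna11, Nos3 and Rgs5), in the region comparisons the 3 list genes that rose most and the 3 that fell most (adjusted p under 0.05, mean log2 CPM of at least 1), in the genotype comparisons every list gene called, and the 5 genes most like each member. Other list genes were chosen after their values were seen. The separate counts of 1 pathway list are not reported here, and marker sums are printed where they stand beside a result. The animal letters in the labels pair the regions within a genotype. Same-animal libraries deviated together with a mean correlation of 0.0426 in ret/wt and 0.0942 in ret/ret. Libraries of the same number but different genotype come from different animals, with mean correlations of 0.0125 in cortex and -0.0361 in thalamus.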

Additional observations from a re-analysis of the deposited data

Results flagged for a closer look

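In ret/ret thalamus, Edn3 stood at 13.2 CPM in replicate 1 and at 6.75 to 7.85 CPM in the other 3 libraries, a gap wide for the group's range. The same library had the highest sums of its group for fibroblast and meninges, ependyma and blood markers. It was 1 flag among 24 groups of 4 libraries, and chance flags about 1 in 20 groups.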

How the results depend on the processing

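Between regions, Ece2 kept its direction in both genotypes under every alternative run, and its call in ret/wt in all 18. Between regions in ret/ret, the count of genes called was 2591 by DESeq2 and 2564 without ret/wt animal 3 and ret/ret animal 2, against 1398. It was 627 to 2007 with 1 library left out. The members called were 0 with the animal block, 2 without those 2 animals and 0 to 2 with 1 library left out. In ret/wt, leaving out 1 library gave 1178 to 1797 genes, against 1813. The animal block gave 1487 genes in ret/wt and 1177 in ret/ret, and changed no other regional call of a member than that of Ece2 in ret/ret. Between genotypes in cortex the count was 39 by DESeq2, 7 in a fit of all 16 libraries and 1 without the 2 animals, against 3. It was 0 to 2 with 1 library left out. With a block on replicate number, which joins different animals and so tests no pairing, it was 0. In thalamus the count was 38 by DESeq2 and 3 in the fit of all 16, against 0, and in the interaction 4 by DESeq2, against 0. Signs turned for Edn1 between regions in ret/wt, at -0.03 without cortex replicate 1 and -0.08 without thalamus replicate 4 (-0.08 to 0.26 with 1 library left out), and for Ednra in ret/ret, at 0.05 without the 2 animals. Among values given without a test, signs also turned with 1 library left out for Ece2 between genotypes in thalamus (lowest -0.02) and for the interactions of Edn3 (highest 0.08), Ednra (lowest -0.11, and -0.01 scaled by library size alone) and Ednrb (highest 0.13). Scaling by library size or upper quartile moved the median of all genes in the ret/wt regional comparison to 0.13. The cause of these changes was not tested. Low counts limit Ednra, Edn3 and ret/wt Edn1, and 4 libraries a group limit all.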
